A study of Mus musculus with 22 samples.

Results

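Expression of 10 genes that report and limit receptor signalling was followed in memory T helper cells recovered from lung tissue or from the circulation of mice. The genes were chosen by name: the early growth response factors Egr1, Egr2 and Egr3, the immediate early gene Ier2, and the dual-specificity phosphatases Dusp1, Dusp2, Dusp4, Dusp5, Dusp6 and Dusp10. All 10 were found among the 55291 gene names listed per library. Of the 22 samples of the series, 8 are RNA-seq libraries, and the 14 ATAC-seq samples were not analysed here. The RNA libraries form 4 groups of 2, set by place and origin. Ex-TRM cells descend from tissue-resident memory cells and ex-Tcirc cells from circulating memory cells, and each origin was sorted from tissue and from circulation.

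In all groups the cells descended from effector Th2 cells, the helper cells of type 2 immunity, taken from OT-II creERT2 or DO11.10 mice. Both lines carry a transgenic T cell receptor for ovalbumin (OVA), so the cells share 1 antigen specificity. The cells had been transferred into mice sensitized with OVA. Recipients were either C57BL/6 mice carrying Ly5.2 or nude mice of the strain BALB/c-nu/nu, which lack a thymus and have few T cells of their own. Tamoxifen was used to trigger Cre recombination, and the driver of the Cre transgene is not given in the sources used here. Cells were sorted at day 49 of one experiment or, after an OVA rechallenge, at day 71 of another. The labels of every library give CD4+ T cells, lung, female mice of 6 to 10 weeks and Balb/c as host strain. They do not say which experiment a library comes from, so experiments and groups cannot be told apart, nor whether replicates come from separate animals, so the spread behind each p-value is that between libraries and may be technical.

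When an antigen receptor is engaged, a cascade of kinases ends in the MAP kinases ERK, JNK and p38, and within minutes these switch on immediate early genes such as the Egr factors and Ier2. The same signal induces dual-specificity phosphatases, which remove the activating phosphates from MAP kinases and so end the signal that made them. In T cells Egr2 and Egr3 also restrain later activation.

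Levels are in FPKM, that is, sequenced fragments divided by gene length and by the mapped total of each library. Circulating ex-TRM replicate 1 was treated as missing, since it listed 917 names above 0 and all 10 genes at 0, which leaves circulating ex-TRM as a single library. Names above 0 numbered 30488 to 37894 in the tissue libraries, 29688 in the remaining circulating ex-TRM library, and 12785 and 7042 in replicates 1 and 2 of circulating ex-Tcirc. Total read counts are unknown, so a gene listed at 0 may lie below what a library could detect. T cell markers summed to 1350 to 1839 FPKM in tissue and 1416 to 1877 FPKM in circulation, with all 8 markers above 0 except Cd3d in both circulating ex-Tcirc libraries and Lck in replicate 2 of that group. Myeloid markers summed to 52.2 to 172 FPKM in tissue, to 78.3 FPKM in circulating ex-TRM, and to 783 and 308 FPKM in circulating ex-Tcirc. Alveolar epithelial markers reached 514 FPKM in circulating ex-Tcirc replicate 1 and were all at 0 in replicate 2. The part of such cells in the values below was not tested, and in bulk samples fewer cells that express a gene and less RNA per cell cannot be told apart.

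Promoter sequences are given for 5 of the 10 genes, to show which of them carry elements of immediate early genes. They are those of Dusp5, Dusp10 and Dusp6, whose libraries did not overlap between tissue and circulation, and of Dusp1 and Egr2 as a phosphatase and an Egr gene to set beside them. Promoters of 6 of the 10 genes, from RefSeq build GRCm38.p6, were searched, and those of Egr1, Egr3, Ier2 and Dusp4 were not. The 250 bases before the gene start are shown 5′ to 3′ on the coding strand. Capitals mark a CArG box, the binding element of serum response factor, or a cyclic AMP response element, TGACGTCA.
Dusp5, chr19:53528895-53529144, plus strand: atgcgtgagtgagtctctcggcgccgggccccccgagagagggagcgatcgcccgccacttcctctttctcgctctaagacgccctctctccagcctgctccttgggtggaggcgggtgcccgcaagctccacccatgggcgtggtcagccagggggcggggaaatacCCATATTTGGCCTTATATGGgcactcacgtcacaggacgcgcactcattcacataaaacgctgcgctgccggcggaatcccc
Egr2, chr10:67537619-67537868, plus strand: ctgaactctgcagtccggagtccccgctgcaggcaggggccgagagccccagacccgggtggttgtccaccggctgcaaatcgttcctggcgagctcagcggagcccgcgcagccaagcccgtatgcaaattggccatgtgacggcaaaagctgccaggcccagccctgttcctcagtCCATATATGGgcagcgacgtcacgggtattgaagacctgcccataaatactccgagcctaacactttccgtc
Dusp1, chr17:26508473-26508722, minus strand: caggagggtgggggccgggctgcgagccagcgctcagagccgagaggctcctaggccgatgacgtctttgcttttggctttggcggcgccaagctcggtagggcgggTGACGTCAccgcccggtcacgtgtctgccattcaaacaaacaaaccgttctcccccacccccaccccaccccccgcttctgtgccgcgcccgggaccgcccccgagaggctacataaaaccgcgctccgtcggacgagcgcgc
Dusp10, chr1:184034131-184034380, plus strand: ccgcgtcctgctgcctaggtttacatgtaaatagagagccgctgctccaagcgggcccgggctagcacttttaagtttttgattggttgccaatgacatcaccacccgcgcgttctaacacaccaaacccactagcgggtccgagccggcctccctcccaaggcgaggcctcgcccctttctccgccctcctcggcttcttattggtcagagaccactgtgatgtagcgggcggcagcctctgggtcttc
Dusp6, chr10:99262981-99263230, plus strand: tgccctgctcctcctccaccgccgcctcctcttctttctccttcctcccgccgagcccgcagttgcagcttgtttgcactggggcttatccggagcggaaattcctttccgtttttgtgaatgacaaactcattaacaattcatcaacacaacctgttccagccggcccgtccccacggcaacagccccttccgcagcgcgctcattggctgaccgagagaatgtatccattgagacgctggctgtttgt
Dusp5 held 2 adjoining CArG boxes, which begin 82 and 72 bases before the gene start, and Egr2 held 1 that begins 72 bases before the start used here, 1 of 5 listed for the gene. The window before another listed start of Egr2, chr10:67535249-67535498, held no CArG box. A CArG box on either strand was present in 1.47% of 32851 promoter windows of this length. Dusp1 held 1 full cyclic AMP response element, found in 1.55% of windows, which begins 143 bases before the start. Neither element was found in the windows of Dusp10 and Dusp6. The sixth promoter, that of Dusp2, held 1 Egr element, GCGGGGGCG, present in 2.57% of windows. The AP-1 element TGANTCA, present in 6.75% of windows, was found in none of the 6 genes. The elements do not overlap one another, and such matches describe letters and not binding.

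**Figure D1:**
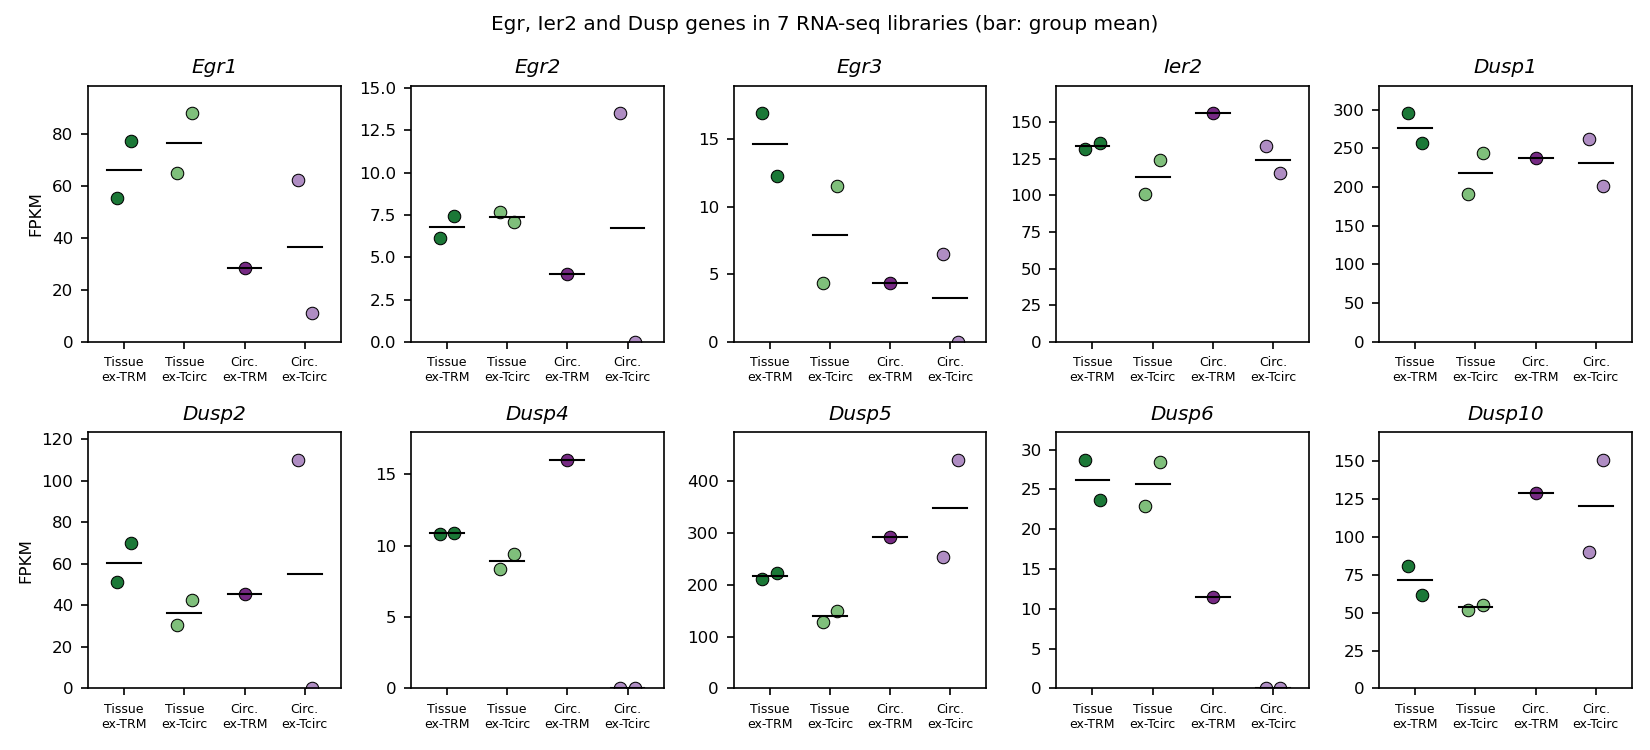
FPKM (vertical axes, linear from 0) of the 10 genes in 7 libraries, with 1 point per library, 4 groups along the horizontal axes and a bar at each group mean. Dusp5 and Dusp10 lie higher in all 3 circulating libraries than in the 4 tissue libraries, Dusp6 lies lower, and Ier2 and Dusp1 lie at similar levels in all groups.

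The 10 genes covered a wide range of levels in tissue. Averaged over the 4 tissue libraries, Dusp1 was highest at 247 ± 42.9 FPKM (SD, n = 4), followed by Dusp5 at 178 ± 45.7, Ier2 at 123 ± 15.7, Egr1 at 71.5 ± 14.3, Dusp10 at 62.5 ± 13 and Dusp2 at 48.4 ± 16.6 FPKM. Dusp6 followed at 25.9 ± 3.08 FPKM, and Egr3, Dusp4 and Egr2 were at 11.3 ± 5.19, 9.87 ± 1.22 and 7.08 ± 0.69 FPKM. In this order the ranges of neighbours overlapped except between Ier2 and Egr1, Dusp2 and Dusp6, Dusp6 and Egr3, and Dusp4 and Egr2. Dusp1 stood above at least 99.7% of protein-coding names in each of the 7 libraries, and Dusp5 above at least 99.5%. Egr3 varied most among tissue libraries, with a highest value 3.9 times the lowest, and Dusp6 least, at 1.25 times.

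The first comparison asked how the place a cell was sorted from relates to these genes. The phosphatase genes Dusp5 and Dusp10 were lower in every tissue library than in every circulating library, Dusp6 was higher in every tissue library, and Dusp1 and Ier2 lay at like levels on both sides. Differences below are tissue minus circulating on log2(FPKM + 1), averaged over both origins, from limma fits across all genes.

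Among the transcription factors, Egr1, the founding member of its family, was at 55.3 and 77.4 FPKM in tissue ex-TRM and 65 and 88.1 in tissue ex-Tcirc, against 28.4 in circulating ex-TRM and 62.3 and 11 in circulating ex-Tcirc. The circulating ex-TRM library and replicate 2 of circulating ex-Tcirc lay under all tissue libraries, while replicate 1 of the second group lay among them. The log2 difference was 1.33 ± 0.70 (SE; limma adjusted p = 0.447). It ranged from 0.73 to 1.93 when 1 library was left out.

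Egr3, which with Egr2 limits T cell activation, measured 16.9 and 12.3 FPKM in tissue ex-TRM and 4.33 and 11.5 in tissue ex-Tcirc, against 4.34 in circulating ex-TRM and 6.53 and 0 in circulating ex-Tcirc. All tissue libraries but 1 lay above all circulating ones, the exception being tissue ex-Tcirc replicate 1 (1.55 ± 0.87, SE; limma adjusted p = 0.355). Leaving out 1 library moved the Egr3 difference between 0.82 and 2.28. Egr2 was at 6.12 and 7.43 FPKM in tissue ex-TRM and 7.7 and 7.09 in tissue ex-Tcirc, against 3.98 in circulating ex-TRM and 13.5 and 0 in circulating ex-Tcirc. Its circulating libraries thus lay on both sides of the tissue range (0.89 ± 1.04, SE; limma adjusted p = 0.685). Within the summed FPKM of the 3 Egr genes, Egr1 held 70.6% to 84.4% in tissue and 75.6% and 77.3% in the 2 circulating libraries that listed all 3.

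Ier2, a small nuclear protein made early after stimulation, was at 132 and 136 FPKM in tissue ex-TRM and 101 and 124 in tissue ex-Tcirc, against 156 in circulating ex-TRM and 134 and 115 in circulating ex-Tcirc. The groups overlapped, and the log2 difference was -0.19 ± 0.19 (SE; limma adjusted p = 0.714).

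Of the nuclear phosphatases, Dusp1, which acts on p38, JNK and ERK, was at 295 and 257 FPKM in tissue ex-TRM and 191 and 244 in tissue ex-Tcirc, against 238 in circulating ex-TRM and 262 and 201 in circulating ex-Tcirc. All circulating values fell inside the tissue range (0.06 ± 0.21, SE; limma adjusted p = 0.884).

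Dusp5, which is selective for ERK in the nucleus and whose promoter above holds 2 CArG boxes, measured 211 and 223 FPKM in tissue ex-TRM and 129 and 149 in tissue ex-Tcirc, against 292 in circulating ex-TRM and 254 and 441 in circulating ex-Tcirc. The lowest circulating library thus lay above the highest tissue library. The log2 difference of -0.85 ± 0.27 did not pass (SE; limma adjusted p = 0.212).

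Dusp2, a phosphatase of blood cells, measured 51.1 and 69.8 FPKM in tissue ex-TRM and 30.3 and 42.5 in tissue ex-Tcirc, against 45.3 in circulating ex-TRM and 110 and 0 in circulating ex-Tcirc. Its highest and lowest values were both in circulating ex-Tcirc, and the error was correspondingly wide (1.10 ± 1.87, SE; limma adjusted p = 0.782). Dusp4, which also acts in the nucleus, was at 10.8 and 10.9 FPKM in tissue ex-TRM and 8.35 and 9.42 in tissue ex-Tcirc, against 16 in circulating ex-TRM and 0 in both circulating ex-Tcirc libraries. The circulating groups thus lay on opposite sides of tissue. Their mean was lower than in tissue, and the difference passed (1.39 ± 0.24, SE; limma adjusted p = 0.0333). With a pseudocount of 0.1 in place of 1 it was 2.97, so its size is set by the zeros.

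Dusp6, the cytoplasmic phosphatase of ERK, was at 28.7 and 23.6 FPKM in tissue ex-TRM and 22.9 and 28.4 in tissue ex-Tcirc, against 11.5 in circulating ex-TRM and 0 in both circulating ex-Tcirc libraries. All 4 tissue libraries lay above every circulating one, the one without a zero included, and Dusp6 passed as higher in tissue (2.92 ± 0.26, SE; limma adjusted p = 0.0231). This value too depends on the pseudocount, being 4.59 with 0.1, and is not read as a fold.

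Dusp10, which acts on JNK and p38 rather than ERK, was at 80.9 and 62 FPKM in tissue ex-TRM and 52.1 and 55.1 in tissue ex-Tcirc, against 129 in circulating ex-TRM and 90 and 151 in circulating ex-Tcirc. Here too every circulating library exceeded every tissue library, and the log2 difference of -0.98 ± 0.29 did not pass (SE; limma adjusted p = 0.182). Over all alternatives limma adjusted p ranged from 0.00304 to 0.718 for Dusp5 and from 0.00385 to 0.777 for Dusp10, and with all 8 libraries, the near-empty one included, both signs turned.

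In count, none of the 6 genes in the first fit, of 2656 genes with a mean of at least 20 FPKM, passed, where 7.34% of all genes did. For comparison, 12.1% of those genes were higher in tissue with no overlap and 11.8% lower. Egr2, Egr3, Dusp4 and Dusp6 lay under that minimum and were tested in a second fit of 28325 genes with at least 1 FPKM in at least 2 libraries, where 2 of the 4 passed as higher and 12.5% of all genes did. Of all 3618 calls of this second fit, 3489 had 0 in each library of circulating ex-Tcirc, like Dusp4 and Dusp6. A pair of zeros counts as matching replicates and lowers the SE and p. Leaving out either tissue ex-TRM library ended both calls (limma adjusted p = 0.106 and 0.106 for Dusp4, 0.0537 and 0.0506 for Dusp6). Lower in tissue with no overlap were 2 of the 6 genes in the first fit, and higher with no overlap was 1 of the 4 in the second, where 12.1% of all genes were. When circulating ex-Tcirc replicate 1 was left out, Dusp5 and Dusp10 differed by -1.05 and -1.17. Egr1, Egr2, Egr3 and Dusp2 then differed by 1.93, 1.85, 2.28 and 2.80. When replicate 2 was left out instead, Dusp5 and Dusp10 differed by -0.65 and -0.80. Egr1, Egr2, Egr3 and Dusp2 then differed by 0.73, -0.08, 0.82 and -0.60. Dusp4 and Dusp6 stayed at 1.39 and 2.92 in both settings. In both, each circulating group is 1 library assumed to vary like the tissue libraries, which alone give the spread. Whether a gene passed is thus not read there. The median log2 difference over the 10 genes was 1.0, beside medians over all genes of 0.43 in the first fit and 0.55 in the second. Among genes above 0 in all 7 libraries, which include Dusp5 and Dusp10, the median was -0.15. With median-of-ratios factors in the main fits, Dusp5 and Dusp10 differed by -0.65 and -0.79 (limma adjusted p = 0.484 and 0.445).

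**Figure D2:**
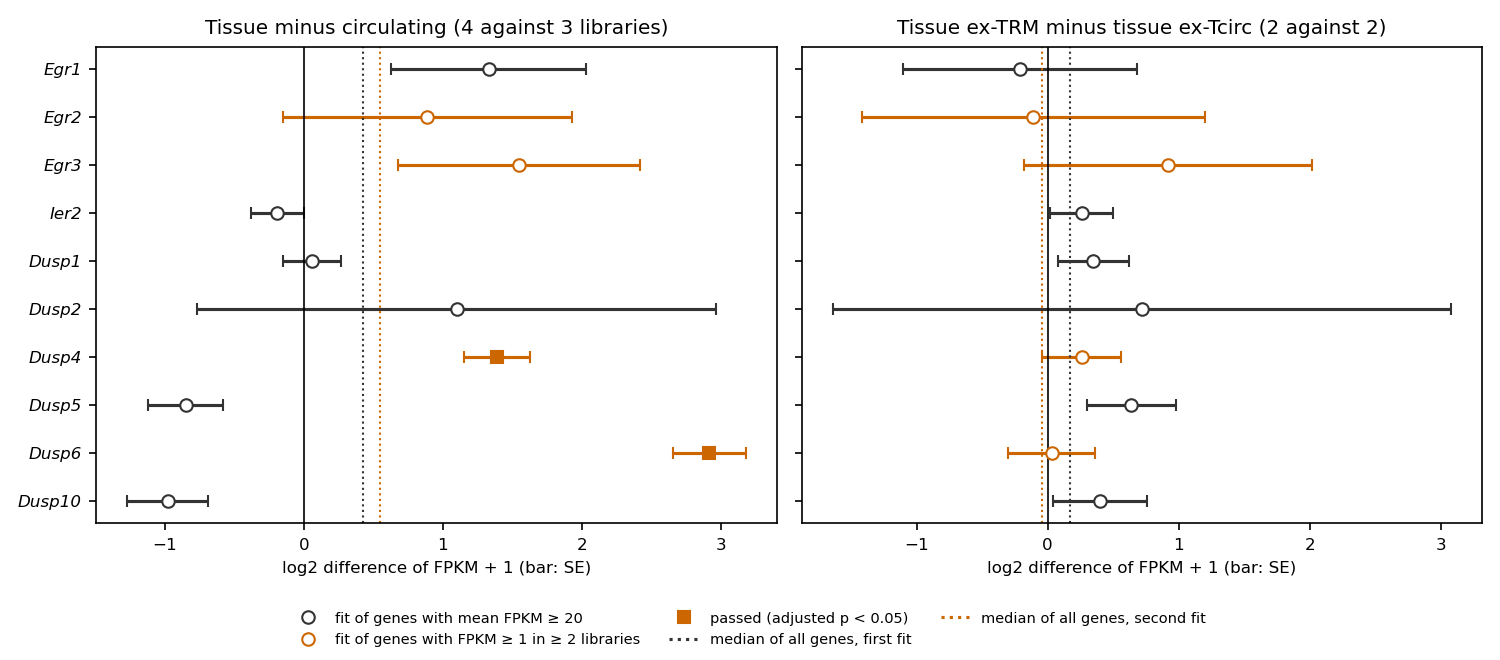
Log2 differences of FPKM + 1 (horizontal axes, bars are SE) of the 10 genes (vertical axis) for tissue minus circulating on the left and tissue ex-TRM minus tissue ex-Tcirc on the right, with dotted lines at the median of all genes in each fit. Filled squares mark the 2 that passed, Dusp4 at 1.39 and Dusp6 at 2.92, both listed at 0 in circulating ex-Tcirc, and open circles mark differences that did not pass.

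How far a 0 can be read was seen from other genes of like level. Among protein-coding genes with a tissue mean of 20 to 40 FPKM, the range that holds Dusp6, 0.589% had a 0 in circulating ex-TRM. In circulating ex-Tcirc 24.9% did in replicate 1, 61.2% in replicate 2 and 23.3% in both. From 5 to 10 FPKM, the range of Dusp4 and Egr2, 58.8% had 0 in each circulating ex-Tcirc library. Even from 40 to 80 FPKM, the range of Dusp2, 50.5% were listed at 0 in replicate 2. From 10 to 20 FPKM, the range of Egr3, 73.7% were at 0 in replicate 2, and from 5 to 10 FPKM 78.2% were. The zeros of Dusp2, Dusp4, Egr2 and Egr3 were thus shared by most genes of like level, and the pair of zeros of Dusp6 by 23.3%. The part of detection in these zeros was not tested. Of the 10 genes, 8 were above 0 in circulating ex-Tcirc replicate 1 and 5 in replicate 2.

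**Figure D3:**
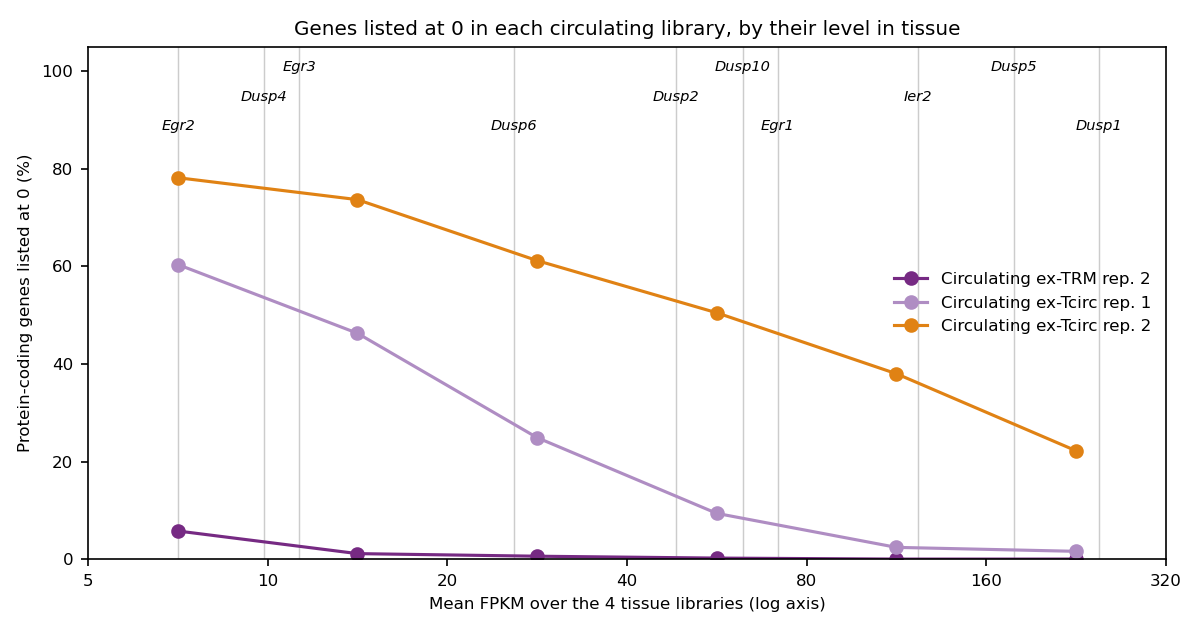
Share of protein-coding genes listed at 0 (vertical axis, %) in each of 3 circulating libraries, by mean FPKM over the 4 tissue libraries (horizontal log axis, points at the middle of each range), with grey lines at the tissue means of the 10 genes. From 20 to 40 FPKM, where Dusp6 lies, the share was 0.589% in circulating ex-TRM, and in circulating ex-Tcirc 24.9% in replicate 1 and 61.2% in replicate 2.

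Ratios within a library do not depend on how libraries are scaled, and 4 were taken against Dusp1 after the values had been seen. Dusp5 and Dusp10 were already known not to overlap between the sides, so the p-values below cannot test that pattern anew. Dusp5 over Dusp1 was 0.714 and 0.867 in tissue ex-TRM and 0.676 and 0.613 in tissue ex-Tcirc, against 1.23 in circulating ex-TRM and 0.968 and 2.19 in circulating ex-Tcirc. In tissue Dusp1 was thus the more abundant of the pair in all 4 libraries, and in circulation Dusp5 was so in 2 of 3. Dusp10 over Dusp1 was 0.275 and 0.242 in tissue ex-TRM and 0.273 and 0.226 in tissue ex-Tcirc, against 0.543 in circulating ex-TRM and 0.343 and 0.75 in circulating ex-Tcirc. For both ratios the sides did not overlap, which gives the smallest p that 4 against 3 libraries allow (exact permutation test, two-sided, p = 0.0571 each, 0.114 after Benjamini-Hochberg adjustment over 4 ratios). Egr1 over Dusp1 spanned 0.188 to 0.362 in tissue and 0.0545 to 0.238 in circulation (exact permutation test, two-sided, p = 0.114, adjusted p = 0.152). Ier2 over Dusp1 stayed within 0.447 to 0.529 in tissue and 0.511 to 0.658 in circulation (exact permutation test, two-sided, p = 0.171, adjusted p = 0.171).

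**Figure D4:**
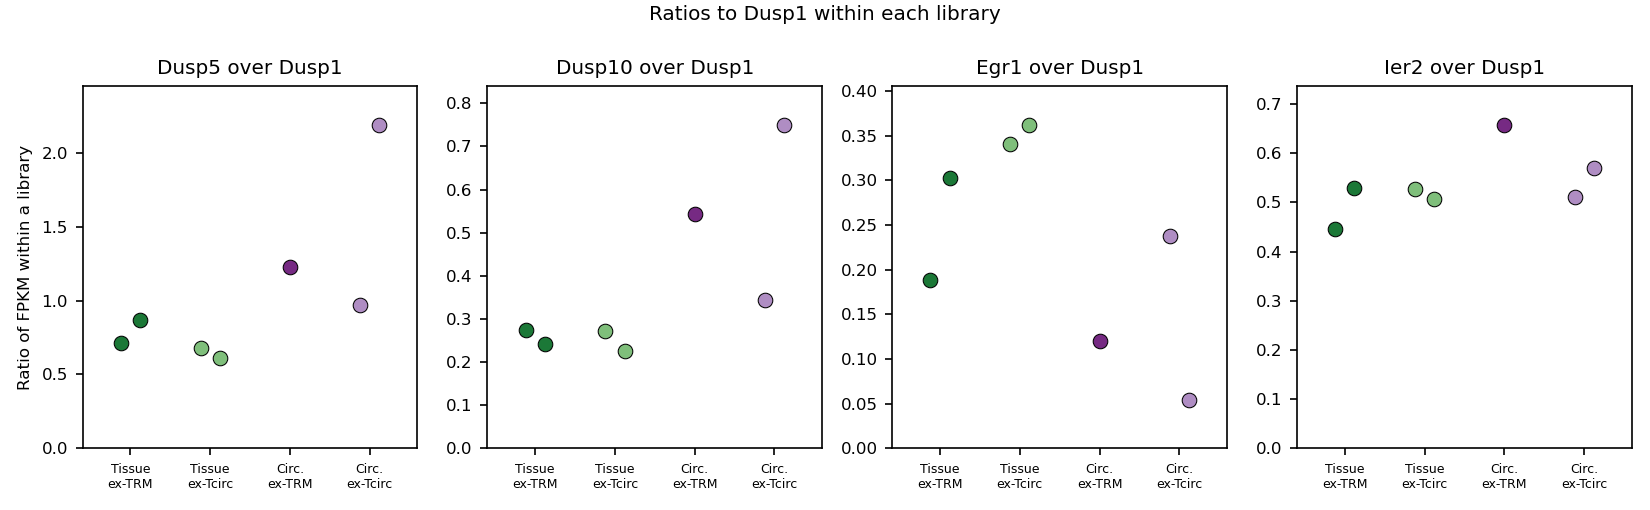
Ratios of FPKM within each library (vertical axes, linear from 0) of Dusp5, Dusp10, Egr1 and Ier2 to Dusp1, with 1 point per library and the 4 groups along the horizontal axes. Dusp5 over Dusp1 is at most 0.867 in tissue and at least 0.968 in circulation, and Dusp10 over Dusp1 at most 0.275 in tissue and at least 0.343 in circulation.

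Dusp1, Dusp5 and Dusp10 made up most of the signal of the 6 phosphatase genes. Their sum, with Dusp2, Dusp4 and Dusp6, was 677 and 646 FPKM in tissue ex-TRM and 434 and 529 in tissue ex-Tcirc, against 732 in circulating ex-TRM and 716 and 793 in circulating ex-Tcirc. Dusp1 held 39.8% to 46.1% of the sum in tissue, against 32.5%, 36.6% and 25.4% in the 3 circulating libraries in the same order. Dusp5 held 28.3% to 34.5% in tissue and 39.9%, 35.4% and 55.6% in circulation, and Dusp6 held 3.66% to 5.38% in tissue and 1.57%, 0% and 0%.

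**Figure D5:**
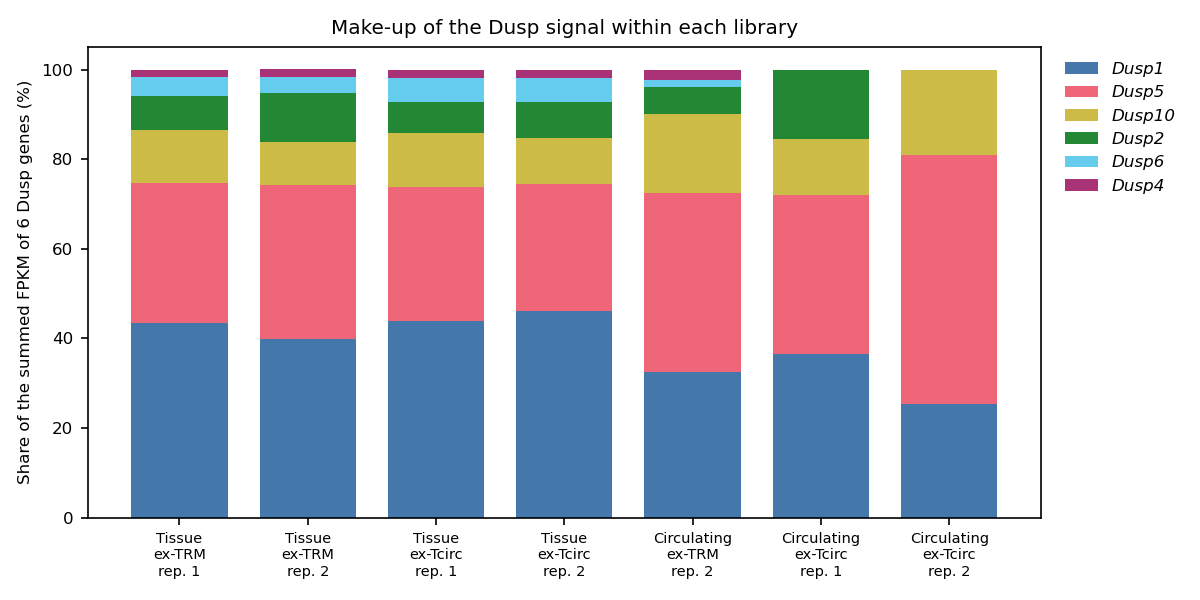
Share of the summed FPKM of 6 Dusp genes (vertical axis, %) held by each gene in 7 libraries (horizontal axis). Dusp1 is the largest share in the 4 tissue libraries, at 39.8% to 46.1%, and Dusp5 the largest in circulating ex-TRM replicate 2 at 39.9% and circulating ex-Tcirc replicate 2 at 55.6%.

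Within ex-TRM cells, tissue was set against a single circulating library, which listed all 10 genes above 0. Of the 10 genes, 6 were higher in both tissue ex-TRM libraries than in it and 4 lower in both. The higher ones were Egr1, Egr2, Egr3 and Dusp6, by log2 differences of 1.18 ± 1.09, 0.64 ± 1.61, 1.53 ± 1.34 and 1.11 ± 0.40 (SE), and Dusp1 and Dusp2, by 0.21 ± 0.33 and 0.39 ± 2.89. Dusp10, Dusp4, Dusp5 and Ier2 were lower, by -0.86 ± 0.45, -0.52 ± 0.37, -0.43 ± 0.42 and -0.22 ± 0.30. With 1 library on a side a gap to both tissue libraries is common, since tissue lay above it for 38.7% of genes in the first fit and 34.6% in the second, and below it for 48.7% and 49.9%. None of the 10 genes passed in limma, the lowest adjusted p being 0.546 for Dusp6, the 1 gene whose unadjusted p was below 0.05. In either fit 0% of all genes passed.

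Within ex-Tcirc cells, Dusp4 and Dusp6 again passed as higher in tissue (limma adjusted p = 0.00583 and 0.00568), both listed at 0 in circulation, where 20.7% of all genes in the second fit passed as higher. None of the 6 genes in the first fit passed, where 9.11% of all genes did. Dusp5 and Dusp10 were lower in tissue without overlap, as were 17.7% of all genes in the first fit, by -1.26 ± 0.34 and -1.11 ± 0.36 (SE; limma adjusted p = 0.135 and 0.194). Egr1 was higher without overlap, as were 29.9% of the genes in the first fit, by 1.48 ± 0.89, and Egr2, Egr3 and Dusp2 overlapped, at 1.14 ± 1.31, 1.57 ± 1.10 and 1.81 ± 2.36 (SE; limma adjusted p of 0.383 or more for these 4). Dusp1 and Ier2 differed by -0.09 ± 0.27 and -0.15 ± 0.24. In the second fit 46.8% of all genes were higher without overlap, as Dusp4 and Dusp6 were. Without circulating ex-Tcirc replicate 1, which leaves the library with the fewest names above 0, Dusp5 and Dusp10 differed by -1.66 and -1.48. Without replicate 2 they differed by -0.87 and -0.74. Egr1 and Egr3 moved from 2.68 and 3.03 without replicate 1 to 0.28 and 0.12 without replicate 2, and Egr2 from 3.07 to -0.79. Dusp4 and Dusp6 stayed at 3.30 and 4.73. In these fits, too, the spread comes from the tissue libraries alone. Dusp2, which had 110 and 0 FPKM in these 2 libraries, thus turned its direction with the library left out (log2 difference 5.20 without replicate 1 and -1.59 without replicate 2). Dusp4 and Dusp6, with the same zeros, also passed the test of whether the location difference varies with origin (limma adjusted p = 0.0427 each, with negative differences, as for 6.77% of all genes in the second fit). That test sets 1 circulating ex-TRM library against zeros, and 3 other scalings and the replicate block ended both calls. No other gene of the 10 passed it, and 0.151% of all genes in the first fit did.

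The next comparison asked whether cells of ex-TRM origin differ from those of ex-Tcirc origin in tissue, where all 4 libraries listed all 10 genes above 0. Of the 10 genes, 7 were higher in both tissue ex-TRM libraries than in either tissue ex-Tcirc library, and none was lower in both. The 5 of them in the first fit were Ier2, Dusp1, Dusp2, Dusp5 and Dusp10, with log2 differences of 0.26 ± 0.24, 0.35 ± 0.27, 0.72 ± 2.36, 0.64 ± 0.34 and 0.40 ± 0.36 (SE), where 40.4% of all genes were higher without overlap and 12.5% lower. Egr3 and Dusp4, at 0.92 ± 1.10 and 0.26 ± 0.30, were the others, in the second fit, where these shares were 21.8% and 10.5%. The median over all genes was 0.17 in the first fit and -0.04 in the second. Protein-coding names held 12.4% and 14.1% of the FPKM sum in tissue ex-TRM and 10.2% and 10.5% in tissue ex-Tcirc. With libraries scaled to a common protein-coding sum, the median of the first fit was -0.04. Dusp5 showed the clearest step among the abundant genes, with 217 ± 8.48 FPKM in tissue ex-TRM and 139 ± 14.4 FPKM in tissue ex-Tcirc (SD, n = 2 each). Egr1, Egr2 and Dusp6 overlapped, at -0.21 ± 0.89, -0.11 ± 1.31 and 0.03 ± 0.33. By limma 0 of the 10 genes passed (adjusted p = 1 for each), 0 had an unadjusted p below 0.05, and 0% of all genes passed in either fit. The tissue ex-Tcirc libraries listed fewer names above 0, and B cell markers summed to 19.9 and 50.7 FPKM in tissue ex-TRM and 392 and 62.4 FPKM in tissue ex-Tcirc, with Cd79a and Cd79b at 0 in every library. Their part in these values was not tested.

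In circulation, where ex-TRM is 1 library, Dusp4 and Dusp6 passed as higher in ex-TRM (limma adjusted p = 0.0124 and 0.0125), again against zeros, where 15.4% of all genes in the second fit passed as higher. Neither 1 library nor a pair of zeros has a spread of its own. These p-values rest on the spread of each gene between tissue libraries, which limma moves towards that of all genes in the fit. Leaving out either tissue ex-TRM library ended both calls (limma adjusted p of 0.0501 to 0.0508). Of the others, Ier2 and Dusp5 differed by 0.33 ± 0.30 and -0.19 ± 0.42, Dusp1 and Dusp10 by 0.05 ± 0.33 and 0.15 ± 0.45, Egr1, Egr2 and Egr3 by 0.10 ± 1.09, 0.39 ± 1.61 and 0.96 ± 1.34, and Dusp2 by 2.14 ± 2.89 (SE). Mean FPKM ran the other way for Egr1 (28.4 in ex-TRM and 36.6 in ex-Tcirc), Egr2 (3.98 and 6.76) and Dusp2 (45.3 and 55.1), and without circulating ex-Tcirc replicate 2 their log2 differences turned to -1.11, -1.54 and -1.26, and that of Egr3 to -0.49. None of the 6 genes in the first fit passed, where 6.63% of all genes did.

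Genes around these 10 in the pathway were followed as lists. Of 13 other Dusp genes, 10 were tested in the second fit, and Dusp7, Dusp12 and Dusp18 passed as higher in tissue, where 12.5% of all genes in that fit did, while none passed as lower. These other Dusp genes were low, with Dusp11, an RNA phosphatase, the most abundant at 18.4 to 30.1 FPKM in tissue and 23.5 to 28.2 FPKM in the 3 circulating libraries. Their median log2 difference between tissue and circulation was 1.04, beside 0.55 over all genes.

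Of 14 other immediate early genes, 13 were tested in the second fit and none passed between tissue and circulation. In limma 2 had an unadjusted p under 0.05, as had 7627 of all 28325 genes in that fit. All 13 differences were positive, with a median of 0.55 equal to that of all genes in the second fit. Fos, partner of Jun in AP-1, was at 677 and 554 FPKM in tissue ex-TRM and 458 and 667 in tissue ex-Tcirc, against 381 in circulating ex-TRM and 352 and 434 in circulating ex-Tcirc. All 4 tissue libraries thus lay above all 3 circulating ones for Fos, as for 12.1% of genes in the first fit, by a narrow margin (458 against 434). Fosb, Jun and Junb of the same list overlapped. The order of Fos was the opposite of that of Dusp5 and Dusp10, and none of these differences passed. Egr4 was listed at 0 in 6 of the 7 libraries and at 0.656 FPKM in tissue ex-TRM replicate 2.

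Of 11 other feedback inhibitors of Ras and ERK, 9 were tested and Spry1 and Dok1 passed as higher in tissue. Spry1, an inhibitor of receptor signalling towards Ras, was at 15.9 and 16 FPKM in tissue ex-TRM and 12.4 and 16.7 in tissue ex-Tcirc, against 8.95 in circulating ex-TRM and 0 in both circulating ex-Tcirc libraries. Its order of groups is thus that of Dusp6. All 20 genes of the MAP kinase cascade were tested, and Araf, Map2k1, Map2k2, Map2k7, Mapk11 and Sos1 passed as higher in tissue and none as lower. All 6 genes of serum response factor and its partners were tested, of which Elk3 and Mrtfb passed as higher. Of 12 Egr corepressors and Egr target genes of T cells, all were tested and Nab2, Ndrg1, Nfil3 and Rnf128 passed as higher. Median log2 differences between tissue and circulation were 1.16 over the feedback inhibitors, 1.18 over the cascade, 1.43 over serum response factor and its partners and 1.19 over the Egr list. Over the 6 lists, 17 of 70 genes tested passed as higher, beside 12.5% of all genes, and all 17 had 0 in each circulating ex-Tcirc library. Srf itself was at 17 and 17.6 FPKM in tissue ex-TRM and 13.4 and 14.6 in tissue ex-Tcirc, against 17.2 in circulating ex-TRM and 17.9 and 0 in circulating ex-Tcirc.

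In the other comparisons list genes that passed were likewise listed at 0 in both libraries of circulating ex-Tcirc. Within ex-Tcirc cells 25 of 70 list genes passed as higher, where 20.7% of all genes did, and the additions to the list above were Dusp3, Dusp16, Ier3, Myc, Spred1, Hras, Mapk9 and Elk1. Between origins in circulation 21 of 70 passed as higher, where 15.4% of all genes did, among them Myc, at 29.1 FPKM in the circulating ex-TRM library and 0 in those of circulating ex-Tcirc. A further comparison, location by origin, had 14 of 70 that passed as lower, where 6.77% of all genes did. In tissue alone, and for ex-TRM cells alone, limma called no list gene, with 0 and 4 at an unadjusted p under 0.05 in the second fit.

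Genes with the most similar course over the 7 libraries were searched among 2148 others by the root mean square difference of centred log2 values. Dusp5 and Dusp10 differed from each other by 0.19, which for Dusp5 compares with 0.14 for Arap2 and 0.18 for Eif3c, and for Dusp10 with 0.19 for Myo1g and 0.20 for Tpm4. Ier2 lay nearest to Notch1 at 0.07 and Hnrnpa0 at 0.08, and Dusp1 to Tra2a at 0.08 and Setd2 at 0.10. Egr1 lay nearest to Nup88 at 0.36 and n-R5s151 at 0.40, and Dusp2 to Itgal at 0.21.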

How the data were processed

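Per the file headers, the authors deposited FPKM values for every gene name of a library. Libraries were strand-specific and made from 3000 to 50000 sorted cells, per the labels' protocols. Per the submitters' processing notes, build mm10 was used with HISAT2 2.2.1, StringTie 3.0.1, Trim Galore 0.6.7, HOMER 4.11, SAMtools 1.15 and MACS2 2.2.7.1, whose roles are not stated. For annotation, counting strand and filters, the sources used here give nothing.

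Values of repeated gene names were summed, and log2(FPKM + 1) of 7 libraries was fitted with limma 3.58.1 in R 4.3.3, with an intensity trend, all groups in the fit and Benjamini-Hochberg adjustment over all genes, at a threshold of 0.05. Tested on simulated data without zeros, both fits estimated the changes made, but only the first fit passed any of them at the threshold, so a gene of the second fit that did not pass says little. The first fit took genes with a mean of at least 20 FPKM and the second those with at least 1 FPKM in at least 2 libraries. Groups and replicate numbers came from the titles. The genes and lists were chosen with earlier results of these data known. All 10 genes were named throughout, list genes where they passed or where chosen after their values were seen (Dusp11, Fos, Egr4, Srf), and 2 genes per member of the first fit by likeness, without predicted gene names, of which 1 is not reported here. Scaling, filters, pseudocount, weights, replicate block and single libraries were varied.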

Additional observations from a re-analysis of the deposited data

Results flagged for a closer look

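Dusp4 and Dusp6 stood out because they passed the test of whether the difference between tissue and circulation varies with origin, a test that sets 1 circulating ex-TRM library against zeros. The log2 difference in ex-TRM cells minus that in ex-Tcirc cells was -3.82 ± 0.48 for Dusp4 and -3.61 ± 0.52 for Dusp6 (SE; limma adjusted p = 0.0427 each). Dusp4 was at 16 FPKM in circulating ex-TRM, above every tissue library, and Dusp6 at 11.5 FPKM, below every tissue library, while both genes had 0 in each circulating ex-Tcirc library. Of the 2099 genes that passed this test in the second fit, 98.8% had the same zeros. Over all alternatives the values ran from -7.04 to -1.78 for Dusp4 and from -6.83 to -1.79 for Dusp6, so their size is set by the zeros and the pseudocount. Both calls ended with median-of-ratios factors, with a fixed sum over all names, with a common protein-coding sum, with the replicate block and with all 8 libraries. Leaving out either tissue ex-TRM library ended both calls (limma adjusted p of 0.107 to 0.119). The part of detection in these zeros was not tested.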

How the results depend on the processing

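Of 1110 alternative values for the 10 genes, 979 kept direction and side of the threshold, 35 lost a pass, 22 gained one and 74 turned sign, and for none of these was the cause tested unless named. The 2 genes that passed in each of 4 comparisons, Dusp4 and Dusp6, are not among genes above 0 in all 7 libraries, so that filter left 0. With all 8 libraries 0 passed in each. For tissue minus circulating, 1 passed with a fixed sum over all names. Within ex-Tcirc, 0 passed when only the groups compared were fitted. For origin in circulation that setting kept both, but limma warned that it is unreliable there, since most genes had no residual variance. For location by origin, 0 passed with median-of-ratios factors, with a fixed sum over all names and with a common protein-coding sum. Over fits leaving out 1 library the number that passed was 0 to 8 for tissue minus circulating, 2 to 8 within ex-Tcirc, 0 to 5 for origin in circulation and 0 to 6 for location by origin. The counts of 0 came without either tissue ex-TRM library and the high ends without circulating ex-Tcirc replicate 1. Without that replicate most genes of the first fit also passed in each of these 4 comparisons. The high ends are thus not read as particular to the 10 genes, and the shares for the second fit are not given. Each circulating group is then 1 library, with no spread of its own.

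Correlations of deviations between equal replicate numbers were 0.01, -0.04 and -0.09 over 2656 genes. They leave out circulating ex-TRM and cannot show whether equal numbers share animals or a batch. With the replicate block, 0 of the 10 genes passed for tissue minus circulating, origin in circulation and location by origin and 2 within ex-Tcirc, and Dusp2 turned to -0.59 within ex-TRM. Without circulating ex-TRM replicate 2, no value that needs circulating ex-TRM could be had. The number of genes that passed in the first fit for tissue minus circulating was 195, against 56 with median-of-ratios factors, 113 with a fixed sum over all names, 0 with the replicate block, estimated library weights or all 8 libraries, 1833 and 1013 without circulating ex-Tcirc replicate 1 or 2, and 2259 with a mean of at least 5 FPKM. Median-of-ratios factors moved the median of all genes for tissue minus circulating to 0.62, from 0.43, and a fixed sum over all names to 0.22. Depth is unknown and limits what zeros in circulating ex-Tcirc show.

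Signs turned with median-of-ratios factors were, as log2 differences, for tissue minus circulating Ier2 0.01, for this within ex-Tcirc Dusp1 0.01, for this within ex-TRM Ier2 0.07, for ex-TRM minus ex-Tcirc in circulation Egr1 -0.06, Dusp1 -0.11 and Dusp10 -0.01, for location by origin Ier2 0.13 and Egr3 0.17. Signs turned with a fixed sum over all names were, as log2 differences, for tissue minus circulating Dusp1 -0.15, for ex-TRM minus ex-Tcirc in tissue Egr2 0.00, for ex-TRM minus ex-Tcirc in circulation Egr1 -0.26, Ier2 -0.04, Dusp1 -0.33 and Dusp10 -0.23, for location by origin Egr1 0.18, Ier2 0.43 and Egr3 0.27. Signs turned with a common protein-coding sum were, as log2 differences, for tissue minus circulating Dusp1 -0.09, for ex-TRM minus ex-Tcirc in tissue Dusp6 -0.18, for ex-TRM minus ex-Tcirc in circulation Egr1 -0.52, Ier2 -0.31, Dusp1 -0.60 and Dusp10 -0.50, for location by origin Egr1 0.10 and Ier2 0.35. Signs turned with all 8 libraries were, as log2 differences, for tissue minus circulating Ier2 1.64, Dusp5 1.20 and Dusp10 0.77, for this within ex-TRM Ier2 3.43, Dusp5 3.67, Dusp10 2.66 and Dusp4 1.52, for ex-TRM minus ex-Tcirc in circulation Egr1 -2.34, Ier2 -3.32, Dusp1 -3.90, Dusp2 -0.63, Dusp10 -3.37, Egr2 -0.77 and Egr3 -0.25, for location by origin Egr1 2.14, Ier2 3.57, Dusp2 1.35, Egr2 0.66 and Egr3 1.17. Leaving out 1 library at a time turned further signs, with ranges over these fits for tissue minus circulating of -0.03 to 0.16 in Dusp1, -0.60 to 2.80 in Dusp2 and -0.08 to 1.85 in Egr2, for this within ex-Tcirc of -0.28 to 0.10 in Dusp1, -1.59 to 5.20 in Dusp2 and -0.79 to 3.07 in Egr2, for ex-TRM minus ex-Tcirc in tissue of -0.45 to 0.03 in Egr1, -0.24 to 0.01 in Egr2 and -0.12 to 0.18 in Dusp6, for ex-TRM minus ex-Tcirc in circulation of -0.22 to 0.51 in Dusp10, -1.11 to 1.30 in Egr1, -0.14 to 0.24 in Dusp1, -1.26 to 5.53 in Dusp2, -0.59 to 0.20 in Dusp5, -1.54 to 2.32 in Egr2 and -0.49 to 2.42 in Egr3, for location by origin of -1.50 to 1.41 in Egr3, -0.22 to 0.07 in Ier2, -1.50 to 0.90 in Egr1, -4.81 to 1.98 in Dusp2, -0.12 to 0.62 in Dusp10 and -2.43 to 1.43 in Egr2.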
